A study of Homo sapiens with 7 samples.

Results

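The genes described here are 10 genes of fatty acid synthesis and storage, FASN, ACACA, ACACB, ACLY, SCD, ELOVL6, SREBF1, MLXIPL, DGAT2 and PLIN2, in the human liver cancer cell line HepG2. They were chosen by symbol, as the rows of the expression table that carry one of these symbols, and each symbol was found in 1 row, giving 10 of 23303 named rows. The data are 7 samples of HepG2, with 1 sample per assay: RNA-Seq after removal of ribosomal RNA, native MNase-Seq of nucleosomes, and ChIP-Seq of the acetylation marks H3K9ac and H3K27ac and of the methylation marks H3K4me3, H3K27me3 and H3K9me3. The labels give no treatment and no second cell type, so there is no contrast between conditions, and no P value was computed. HepG2 is 1 line grown from a hepatic tumour, and what holds in it cannot be told apart from what is particular to that line.

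In the liver, surplus carbohydrate is turned into fat. Citrate leaves the mitochondrion and is cleaved to acetyl-CoA by ATP citrate lyase (ACLY), acetyl-CoA carboxylase makes malonyl-CoA (ACACA in the cytosol, ACACB at the mitochondrial outer membrane, where its product restrains fatty acid oxidation), and fatty acid synthase (FASN) builds palmitate. ELOVL6 lengthens palmitate, SCD introduces a double bond, DGAT2 joins the last acyl chain of a triglyceride and PLIN2 coats the lipid droplet that stores it. The transcription factors SREBP-1, from SREBF1, and ChREBP, from MLXIPL, respond to insulin and to glucose and switch on the enzyme genes. Of the marks, H3K4me3 and H3K9ac lie mainly at active promoters, H3K27ac at active promoters and enhancers, H3K27me3 at genes silenced by Polycomb and H3K9me3 in heterochromatin.

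The RNA-Seq values are FPKM, the fragments of a gene scaled by transcript length and library size, and are thus comparable between genes of different length. They were deposited in a pair of columns, here run 1 and run 2, which belong to 1 sample. Whether they come from separate cultures is not given in the sources used here, so they are not counted as replicates, and the mean of both is used where 1 value is given. In HepG2, 8 of 8 hepatocyte genes on a marker list had an FPKM of at least 1, from 13.99 for FOXA2 to 10011 for ALB, and AFP and GPC3 of the fetal liver had 3798 and 1331. None of 4 blood markers, 3 endothelial markers or 3 adipocyte markers reached 1, and PTPRC, CD3E and LEP were listed at 0. Of 4 fibroblast and stellate markers, 2 reached a mean of 1. COL1A2 had 1.32 and 0.996 in the runs and PDGFRB 2.06 and 1.95, while COL1A1 and DCN had means of 0.164 and 0.0430. Of the bile duct markers, KRT19 had 109.5 beside 0.109 for KRT7. Among the 11359 named rows with an FPKM of at least 1, the median absolute difference between the runs was 0.06 on the log2 scale and the 90th percentile was 0.22.

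In the RefSeq promoter table (build GRCh38.p14), 8 of the 10 members matched, with 12 starts in all, and FASN and DGAT2 did not match. The 250 bases before the start are shown for SCD, ACLY and PLIN2, the members with the highest expression among those matched, for SREBF1 and for both starts of ACACB, the member with the lowest expression. They are written 5′ to 3′ on the strand of the gene. Capitals mark CCAAT or its reverse ATTGG (the CCAAT box bound by NF-Y), GGGCGG or CCGCCC (the GC box bound by Sp1) and CACGTG (the E-box core), searched on both strands.
SCD, chr10:100346983-100347232, plus strand: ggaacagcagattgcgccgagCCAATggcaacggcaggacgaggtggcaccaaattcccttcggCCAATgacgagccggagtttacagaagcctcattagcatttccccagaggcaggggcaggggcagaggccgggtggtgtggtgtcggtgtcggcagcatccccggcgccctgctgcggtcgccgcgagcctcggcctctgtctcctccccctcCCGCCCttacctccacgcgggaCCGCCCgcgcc
ACLY, first start, chr17:41919023-41919272, minus strand: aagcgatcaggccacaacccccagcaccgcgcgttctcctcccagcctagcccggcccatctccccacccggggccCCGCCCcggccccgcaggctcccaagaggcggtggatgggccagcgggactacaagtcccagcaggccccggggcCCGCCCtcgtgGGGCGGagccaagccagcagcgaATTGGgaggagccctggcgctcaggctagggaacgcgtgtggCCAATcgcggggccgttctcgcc
PLIN2, chr9:19127493-19127742, minus strand: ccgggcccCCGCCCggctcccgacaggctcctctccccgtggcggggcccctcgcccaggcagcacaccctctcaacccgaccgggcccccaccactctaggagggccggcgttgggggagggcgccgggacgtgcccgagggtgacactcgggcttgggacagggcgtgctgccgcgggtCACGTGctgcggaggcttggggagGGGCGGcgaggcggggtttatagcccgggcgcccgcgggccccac
SREBF1, chr17:17836987-17837236, minus strand: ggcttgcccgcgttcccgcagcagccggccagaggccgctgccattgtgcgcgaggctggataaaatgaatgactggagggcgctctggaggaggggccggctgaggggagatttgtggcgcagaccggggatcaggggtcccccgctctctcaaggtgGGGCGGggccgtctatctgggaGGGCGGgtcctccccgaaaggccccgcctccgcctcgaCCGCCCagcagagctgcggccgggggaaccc
ACACB, first start, chr12:109116337-109116586, plus strand: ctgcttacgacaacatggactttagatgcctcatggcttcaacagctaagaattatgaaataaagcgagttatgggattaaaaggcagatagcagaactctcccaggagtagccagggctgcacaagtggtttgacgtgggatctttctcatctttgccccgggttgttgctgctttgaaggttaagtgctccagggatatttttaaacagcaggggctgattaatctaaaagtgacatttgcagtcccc
ACACB, second start, chr12:109154429-109154678, plus strand: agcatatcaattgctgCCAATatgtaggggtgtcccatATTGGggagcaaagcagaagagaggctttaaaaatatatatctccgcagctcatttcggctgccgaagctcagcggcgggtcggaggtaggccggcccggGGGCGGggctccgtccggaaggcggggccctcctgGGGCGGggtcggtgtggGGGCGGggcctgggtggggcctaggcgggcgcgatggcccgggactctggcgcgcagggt

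Each of the 8 members had a GC box before at least 1 of its 1 to 3 starts. Counted per start, a GC box was present before 10 of the 12, against 42.6% of all 35116 promoters of the table. SCD had 2, ending 6 bases before the start, and ACACA had 6 before its second start, a pair of which overlap. The CCAAT box was found before 6 of the 12 starts, namely that of SCD, both of ACLY, which lie 71 bp apart and share most of their sequence, 1 of ACACB and 2 of ACACA, and in 32% of all promoters. In SCD there were 2, which began 229 and 186 bases before the start. The CACGTG core was found in PLIN2 alone, 69 to 64 bases before the start, and in 6.34% of all promoters. The sterol element TCACNCCAC, or its reverse GTGGNGTGA, was found before 0 of the 12 starts and in 0.883% of all promoters. With a share this low, 12 starts cannot show whether the members differ from other promoters, and FASN and DGAT2 were not searched. The G and C content of these 250 bases was 45.2% at the first start of ACACB and 66.4% at the second, and the median over all promoters was 58%. The starts without a GC box were this first start of ACACB and the third of ACACA, with 43.6%. At the starts with a GC box the content was 57.2% to 81.6%. Whether the share with a GC box differs from promoters of like content was not tested. The files use other coordinates (hg19, per the submitters' notes), so these starts were not placed on the nucleosome map.

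All 10 members were expressed at an FPKM of at least 1, against 48.7% of all named rows. At a limit of 0.1 the count was again 10, against 60.2% of rows, and at a limit of 5 it was 9, against 36.7%, with ACACB below the limit. The median over the members was 35.2 FPKM, compared with 0.790 over all named rows and 11.9 over those at 1 or more. The range was wide, since the highest member was 121.5 times the lowest. Of the members, 8 were higher in run 1 and 2 in run 2, and the log2 ratio of run 1 to run 2 lay between -0.08 and 0.11.

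**Figure D1:**
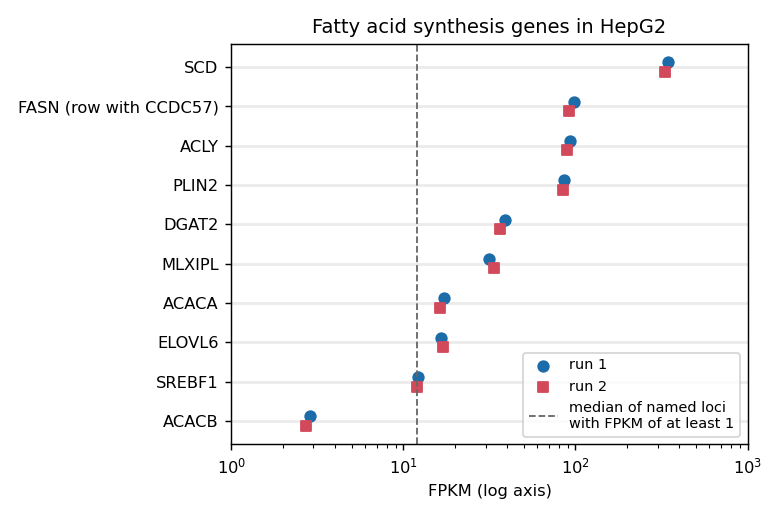
FPKM of the 10 members on a log axis, with a circle for run 1 and a square for run 2 and a dashed line at the median of named rows with an FPKM of at least 1 (11.9). SCD stands apart at the top and ACACB at the bottom, and the runs of a member nearly coincide.

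Of the enzymes that make the fatty acid chain, FASN and ACLY were the highest. FASN had 98.3 FPKM in run 1 and 91.3 in run 2. Its row also carries CCDC57, a neighbouring gene read from the same strand, so the value covers both symbols and cannot be assigned to FASN alone. ACLY had 93.1 and 89.1. The runs of FASN and ACLY overlapped, so their order is not resolved, and they lay at the 93.2 and 92.9 percentiles of expressed named rows. The acetyl-CoA carboxylases, which catalyse the committed step, were lower. ACACA had 17.1 and 16.4 FPKM, at the 60.9 percentile of expressed rows, and ACACB had 2.86 and 2.71, at the 13.2 percentile. The cytosolic form was thus 6.02 times the mitochondrial form, with no overlap of the runs.

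Of the enzymes that modify the chain, SCD had 343 FPKM in run 1 and 333 in run 2, which placed it 190th of all named rows and 3.57 times above FASN. ELOVL6 had 16.5 and 17.0, and its runs overlapped those of ACACA. The desaturase was therefore the most abundant member per length and the elongase among the lower members.

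Of the genes of storage, PLIN2 had 85.3 FPKM in run 1 and 84.3 in run 2, below ACLY with no overlap, by a ratio of 1.07. DGAT2, which makes the triglyceride, had 39.1 and 36.6. The transcription factors were below the median of the members. MLXIPL had 31.6 and 33.4, and SREBF1 had 12.1 and 11.9, at the 50.3 percentile of expressed rows. The FPKM of SREBF1 is for all its transcripts together, and the forms SREBP-1a and SREBP-1c were not separated.

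Chromatin was read as nucleosome positions. The authors listed 14217405 positions from MNase-Seq and, for each mark, the positions at which ChIP-Seq was enriched. These lists carry coordinates without scores or reads, and the depth behind them is unknown. Shares are given with their exact 95% binomial interval by the method of Clopper and Pearson, in which only the error of counting positions enters. The interval takes positions as independent, but marks often came in runs of neighbouring positions, so it is likely too narrow. The codes follow the study: "T" is H3K4me3/H3K9ac/H3K27ac on the same position, "D" is H3K4me3/H3K9ac and "A" is H3K4me3 alone.

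Over the 10 loci with 10 kb added at each end, 207 of 6795 positions were marked, or 3.05% (2.65 to 3.48), against 1.43% in the genome. All members are expressed, and the median share per locus over expressed loci was 3.58%. These are unlike measures, since long loci weigh more in a pooled share than in a median per locus. Taken per locus, the members lay on both sides of that median, as given below. "T" was the most frequent code with 81 positions, followed by H3K27ac alone with 55 and "A" with 29. "D" and H3K9ac/H3K27ac had 15 each, H3K4me3/H3K27ac 5, H3K9ac alone 3, H3K9me3 alone 3 and H3K27me3 alone 1. Of the H3K27ac-only positions, 54 of 55 lay beyond 2 kb of the start listed for the member. Nearly all positions of the windows lie there, since only 16 to 21 per member were within 2 kb. The count is thus no sign of a distal placement of H3K27ac. Of the 81 "T", 38 lay within 2 kb of the listed start, and some of the others lay at the listed starts of neighbouring genes.

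**Figure D2:**
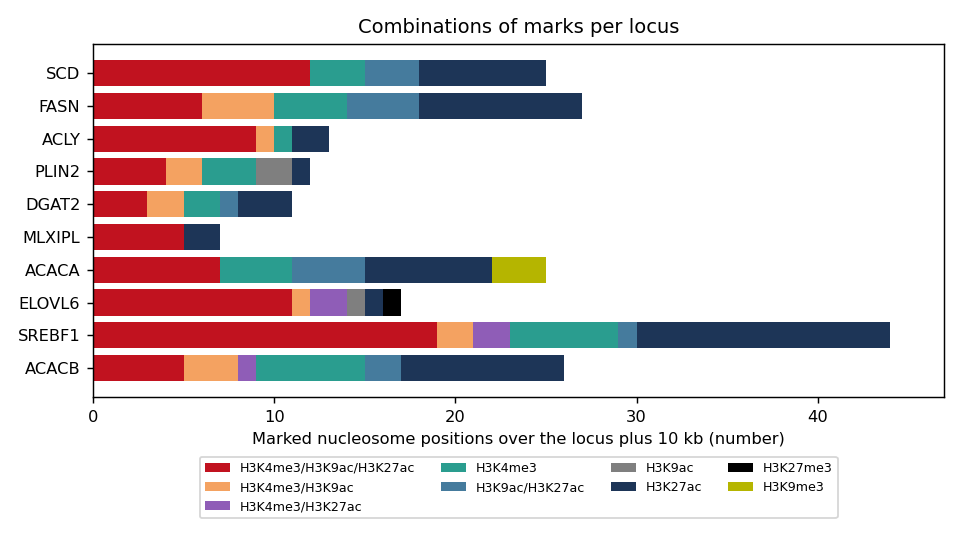
Number of marked nucleosome positions over each locus plus 10 kb (horizontal axis), split by the exact combination of marks on a position, with the members ordered by FPKM. SREBF1 has the longest bar, 44 positions over a locus that it shares with RAI1, and MLXIPL the shortest with 7.

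H3K4me3, H3K9ac and H3K27ac were each found at all 10 loci. Among all 17533 named loci of distinct coordinates the shares were 69.5%, 69.5% and 63.0%, and among named loci with an FPKM of at least 1 they were 98.2%, 98.1% and 96.4%, so their presence is what most expressed loci show. H3K27me3 was found at 1 member, ELOVL6, with 1 position 97.4 kb downstream of the start, against 30.3% of named loci and 18.8% of expressed ones. H3K9me3 was found at 1 member, ACACA, with 3 positions that lay 110.6, 206.9 and 254.2 kb from the listed start, against 29.9% of named loci and 28.0% of expressed ones.

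The share of positions marked differed between the loci. With 10 kb added at each end, SCD had the highest, with 25 of 195 positions or 12.8% (8.47 to 18.3), more than 98.1% of expressed loci, and 9 of the 25 were the block at NCRNA00263 described further on. PLIN2 followed with 12 of 164, or 7.32% (3.84 to 12.4). The order of SCD and PLIN2 turned with the margin, since PLIN2 had 15.6% and SCD 8.79% over the locus alone, and 9.65% and 8.84% with 5 kb at each end. ACACA had the lowest with 25 of 1828, or 1.37% (0.887 to 2.01), over a locus of 325 kb, and ELOVL6 had 1.88% (1.10 to 2.99) over 153 kb. The median over expressed loci was 3.58%. ACACA, ELOVL6, MLXIPL, ACACB, FASN and ACLY lay below it, from the 11.7 to the 45.1 percentile of expressed loci. DGAT2, SREBF1, PLIN2 and SCD lay above it. The loci differ in length, and the shares of the long loci are spread over long stretches without marks. The intervals of SCD and ACACA do not overlap, and those of SCD and PLIN2 do. Because the intervals take neighbouring positions as independent, this does not settle which loci differ.

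The listed start of a gene is the end of its row's coordinates, and 7 members have coordinates of their own. FASN shares its row with CCDC57, SREBF1 its coordinates with RAI1, SMCR5 and MIR33B, and ACACA with C17orf78, so for these the listed ends can belong to another gene. All 7 had at least 1 "T" within 2 kb of the start, against 42.9% of all genes with coordinates of their own and 84.8% of the expressed ones. Of the 7, 6 had at least 3 "T" within 2 kb of the start (ACLY, ELOVL6, MLXIPL, PLIN2, SCD and DGAT2), against 27.8% of all 13289 genes with coordinates of their own and 56.4% of the expressed ones. The median number was 4, compared with 3 over expressed genes. The number did not follow the order of expression throughout. SCD, with the highest FPKM, had 3 "T", a number that 43.6% of expressed genes fall short of, while ELOVL6, with a far lower FPKM, had 6. SCD also had the fewest positions within 2 kb, 16. Other members did go with the order: ACACB, with the lowest FPKM, had 1 "T", the fewest of the 7. ACLY, next below SCD in FPKM, had 7 "T", the most.

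**Figure D3:**
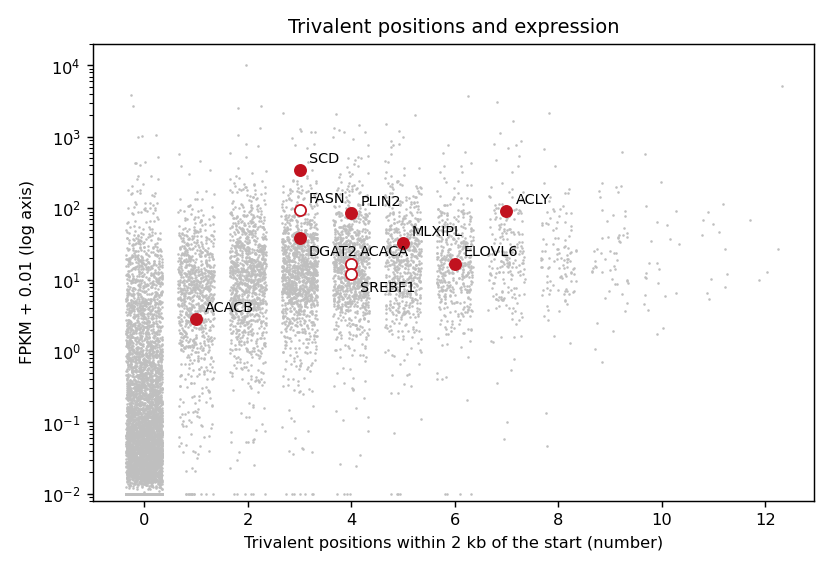
FPKM plus 0.01 on a log axis against the number of "T" positions within 2 kb of the start, for genes with coordinates of their own (grey points, spread sideways within each number) and for the members (red). Filled circles are the 7 members with coordinates of their own, and open circles are FASN (at its inner H3K4me3 group), ACACA and SREBF1. SCD lies high at 3 "T", ACLY has 7 and ACACB has 1.

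ACLY had 7 "T" among 20 positions within 2 kb of its start on chromosome 17, or 35% (15.4 to 59.2), more than 93.5% of expressed genes. From upstream to downstream they ran from -284 to 1013 bp, 2 before the start and 5 after it, and 1 "A" closed the row at 1293 bp. The stretch covered 8 neighbouring positions from 40074137 to 40075853 without a gap in marking. The locus of KLHL11, with 4.74 FPKM, ends 1254 bp below the ACLY locus, and 2 further "T" and 1 "D" lay there.

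ELOVL6 had the longest stretch. All 14 neighbouring positions from 111117364 to 111120229 on chromosome 4, over 2866 bp, carried H3K4me3, and 11 of them were "T", 1 was "D" and 2 were H3K4me3/H3K27ac. The stretch ran downstream from the listed start, with 6 "T" within 2 kb and 11 within 10 kb, and it held no "A". The rest of the window, over a locus of 153 kb, held 3 marked positions, of which 1 had H3K27ac, 1 had H3K9ac and 1 had H3K27me3.

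MLXIPL had 5 "T" from 642 to 1520 bp downstream of its listed start on chromosome 7, on 5 neighbouring positions from 73037794 to 73038811, and no other code within 2 kb. With these and 2 positions of H3K27ac alone, all 7 marked positions of its locus were accounted for.

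SCD, on chromosome 10, had 3 "T" followed by 3 "A" from 102107354 to 102108441, which began 1134 bp downstream of the listed start. No nucleosome position was listed over the start itself: the midpoints of the positions on either side were 1289 bp apart, wider than at 98.4% of expressed genes, whose median was 435 bp. A second block of 7 positions with H3K27ac, 2 of them also with H3K9ac, lay between -5.25 and -3.83 kb from the start and carried no H3K4me3. At the other end of the gene, 9 neighbouring positions from 102132694 to 102134586 were all "T". They lie around the listed start of NCRNA00263, a noncoding RNA with 2.08 FPKM in run 1 and 2.05 in run 2, which begins 8358 bp beyond the listed end of SCD. Of the 12 "T" in the SCD window, 3 thus lay at the start of SCD and 9 at this neighbour.

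PLIN2 had 4 "T" within 2 kb of its start on chromosome 9, between 277 and 1017 bp downstream. The group around them, from 19125267 to 19127366, held 9 positions with H3K4me3, of which 4 were "T", 2 "D" and 3 "A". Within 500 bp of the start the widest distance between midpoints was 567 bp. H3K27ac was found at 5 positions in the whole window and H3K4me3 at 9. PLIN2 had the fewest H3K27ac positions of the members, but its window was also the smallest, with 164 positions. The number is thus not a sign of a low share of H3K27ac among all positions of the window. Among its 12 marked positions H3K27ac was the less frequent, since H3K9ac was at 8 of them. Every other member had at least as many positions with H3K27ac as with H3K4me3.

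In DGAT2, on chromosome 11, the codes followed each other without mixing. From -145 bp to 963 bp around its start, 7 neighbouring positions were "T", "T", "T", "D", "D", "A" and "A", from 75479564 to 75480811. A group of 3 positions with H3K27ac lay 13.8 to 14.2 kb downstream, inside the gene.

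**Figure D4:**
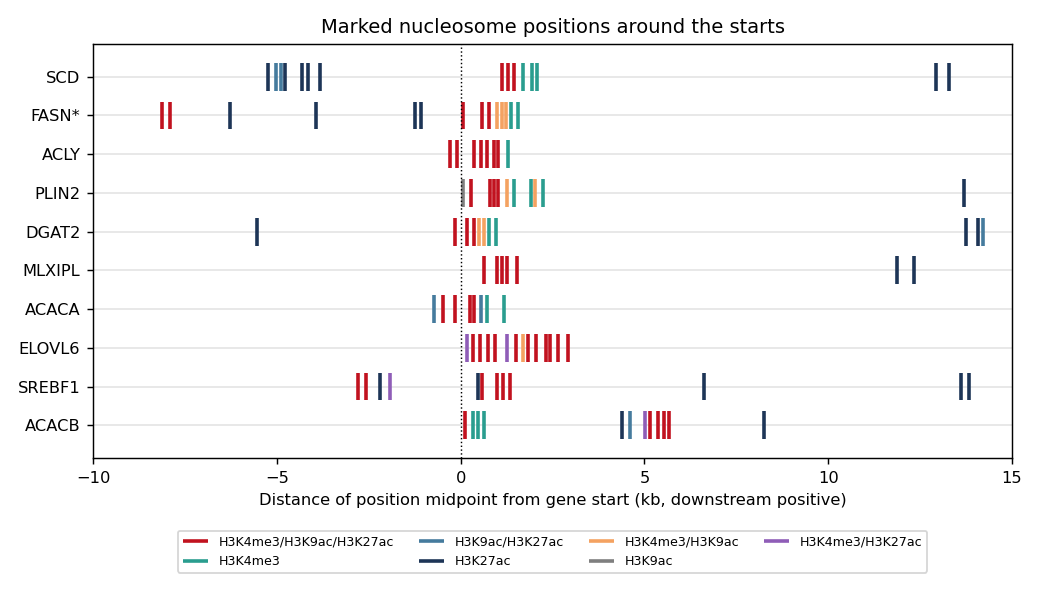
Marked nucleosome positions from 10 kb upstream to 15 kb downstream of the start of each member, each drawn as a bar at its midpoint and coloured by its combination of marks, with the gene start at 0. The star at FASN says that its zero is the upper end of its inner H3K4me3 group and not a listed start. In DGAT2, SCD, FASN, PLIN2, ACLY and ACACA the red bars ("T") precede the green bars ("A"), in ACACB the green bars lie between 1 red bar at the start and 4 red bars farther downstream, and ELOVL6, MLXIPL and SREBF1 have no green bar.

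FASN has no listed start of its own. From general knowledge, and not from the data used here, FASN lies below CCDC57 on chromosome 17, and both are read towards lower coordinates. On that placement the upper end of the shared row, with 1 "T" within 2 kb, is the side of CCDC57. Inside the row, the lowest group with H3K4me3 lay from 80054377 to 80056016, and its centre was 19.2 kb above the lower end. Its 8 neighbouring positions were, from the upper end downwards, 3 "T", 3 "D" and 2 "A". Above it, after 1 unmarked position, the midpoints of neighbouring positions were 997 bp apart, and a further 2 "T" lay from 80063847 to 80064206. This group was taken as the start region of FASN after the positions had been seen, and the files do not tie it to FASN. Beyond the upper end of the row, 7 neighbouring positions had H3K27ac without H3K4me3, 4 of them with H3K9ac.

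ACACA, also on chromosome 17, had a pair of H3K4me3 groups. At the listed start, the group from 35765707 to 35767501 held 4 "T" and 2 "A". TADA2A, a gene of the opposite strand with 4.32 FPKM in run 1 and 5.11 in run 2, has its listed start 21 bp away, so the 2 "T" upstream of ACACA lie in TADA2A and the group cannot be assigned to either gene. The other group, from 35714782 to 35716681, lay inside ACACA with 3 "T" and 2 "A", its centre 50.9 kb from that of the first. RefSeq lists 3 starts of ACACA, with the others 47.7 and 107.1 kb from the first in its own build. C17orf78, with the same listed coordinates, had 0.0255 FPKM.

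ACACB, on chromosome 12, had 3 groups, which differed in their codes. The group at the listed start, from 109549032 to 109549671, held 1 "T" and 3 "A", and UNG, with 38.6 FPKM, ends 175 bp before that start. The next, from 109553917 to 109554709 and centred 5.34 kb downstream, held 4 "T" and 1 H3K4me3/H3K27ac on 5 neighbouring positions. The last, from 109591632 to 109593261 and centred 43.5 kb downstream, held 3 "D" and 3 "A" and no H3K27ac. The centres of the last 2 groups were 38.1 kb apart, and the starts of ACACB that RefSeq lists are also 38.1 kb apart, which is a comparison of distances within each build and not a match of positions. A block of 7 positions with H3K27ac and no H3K4me3 lay 86.4 to 88.4 kb downstream, inside the gene.

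SREBF1, on chromosome 17, had 4 "T" from 580 to 1354 bp downstream of the listed upper end, from 17739750 to 17740663, and 2 more "T" in a group centred at -2.35 kb. Over the whole window it had 44 marked positions, the most of the members, and 19 "T". The coordinates are those of a row of 157 kb shared with RAI1, which is read in the other direction with 4.94 FPKM in run 1 and 4.62 in run 2. The groups from 17585600 to 17586691 and from 17597157 to 17598766, with 4 and 6 "T", lie at the end where RAI1 starts, so this total describes the region and not SREBF1. MIR33B, the microRNA inside SREBF1, was listed at 0 in both runs, and SMCR5 had 0.0268 FPKM. The remaining named neighbours within 10 kb of a member were TOM1L2 above SREBF1, with 1.91 FPKM, and FOXN4 above ACACB, with 0.0955.

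The order of the codes along the gene was compared over a window from 500 bp upstream to 3000 bp downstream of the start, a measure chosen after the maps had been seen. In the 5 members with coordinates of their own and both "T" and "A" in this window (ACACB, ACLY, SCD, DGAT2 and PLIN2), the median "A" lay farther downstream than the median "T" in 5 of 5. In ACACB this leaves out the 4 "T" that lie downstream of the window. The group shared by ACACA and TADA2A had the same order in the direction of ACACA. The distances were 183 and 870.5 bp in DGAT2, 1282 and 1940 bp in SCD and 859.5 and 1907 bp in PLIN2. This order was found in 74.6% of the 3585 genes with both codes, so it is common among genes at large. At the inner group of FASN the medians were 580 and 1472.5 bp from its upper end.

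Nucleosome spacing was similar over the loci. The median distance from one position's start to the next was 173 bp over the members' windows together, from 165 bp at FASN to 188 bp at PLIN2, and 180 bp in the genome. The gap at the start varied more. Within 500 bp of the listed start, the widest distance between midpoints was 327 bp at ELOVL6 and 328 bp at DGAT2, and 1289 bp at SCD. At MLXIPL it was 340 bp within 500 bp of the listed start and 775 bp within 2 kb.

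The other genes of the pathway were taken from lists by function. For comparison, 48.7% of all named rows had an FPKM of at least 1, and the median over all named rows was 0.790. For citrate and NADPH supply, 6 of 7 genes had an FPKM of at least 1, with a median of 100.6, and the range was from 0.0809 for ME1, the cytosolic malic enzyme, to 505 for IDH1, a source of NADPH. In elongation and desaturation, 9 of 12 genes were expressed, with a median of 30.4, the highest being ELOVL5 with 75.6 and the lowest ELOVL4 with 0.133. In acyl-CoA activation and glycerolipid assembly, 15 of 16 were expressed with a median of 20.04, from 0.692 for ACSL6 to 178.3 for ACSL4. Genes of the droplet coat and of lipolysis had a lower median than these lists, 2.61, with 11 of 17 expressed. There, PLIN3 was the highest with 32.2 and CIDEA was listed at 0, and PLIN1 and PLIN5, relatives of PLIN2, had 0.403 and 1.39.

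Among the genes of SREBP, ChREBP and LXR control, 13 of 16 were expressed with a median of 14.7. INSIG2, which holds SREBP in the endoplasmic reticulum, was the highest with 52.4, and THRSP, a lipogenic gene, was the lowest with 0.249. SREBF2, the relative of SREBF1 that mainly drives cholesterol synthesis, had 38.5. All 7 genes of AMPK and its activating kinase were expressed, from 1.89 for PRKAG2 to 35.5 for PRKAB2, and all 7 of mitochondrial fatty acid synthesis, from 7.29 for MCAT to 312 for NDUFAB1, which also serves the respiratory chain.

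Against related pathways, the members' median of 35.2 FPKM lay between that of 19 cholesterol synthesis enzymes, 83.5, and that of 22 genes of fatty acid oxidation and ketogenesis, 23.9. In these lists 19 of 19 and 21 of 22 genes were expressed, against 48.7% of all named rows. The cholesterol list ran from 11.5 for PMVK to 273 for MVD, whose row also carries CYBA, and the oxidation list from 0.0694 for ACADL to 240.4 for ETFB, whose row also carries VSIG10L. Of the expressed genes with coordinates of their own, 6 of 12 in the cholesterol list and 7 of 12 in the oxidation list had at least 3 "T" within 2 kb of the start, beside 6 of 7 members and 56.4% of expressed genes. The lists overlap widely in FPKM, and with 1 sample no test between them was made.

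**Figure D5:**
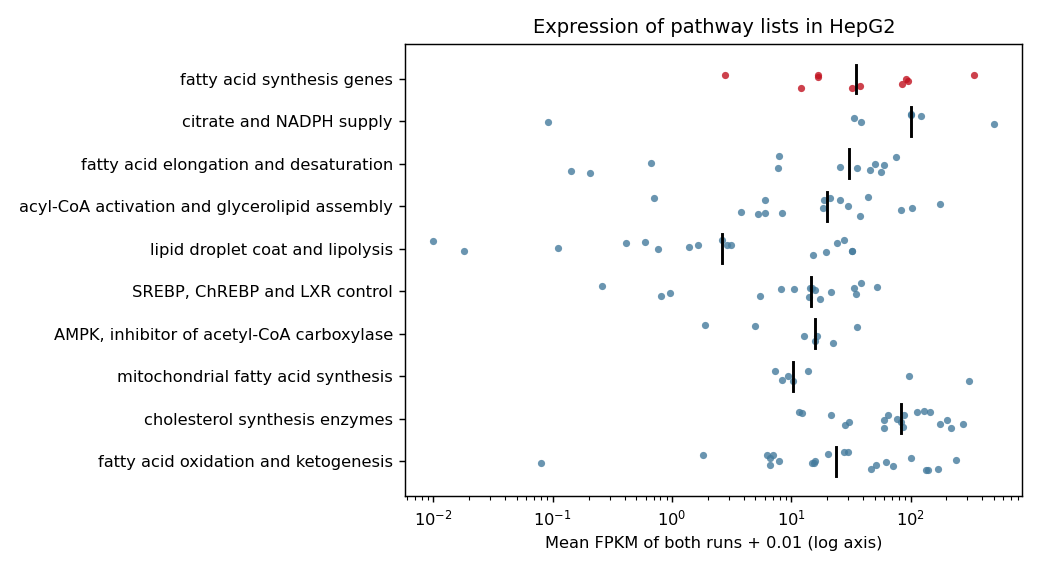
Mean FPKM plus 0.01 on a log axis for each measured gene of 10 lists (points, spread vertically within a list), with a black bar at the list's median. The members (red) range from 2.78 to 338, and SCD lies above the highest genes of the cholesterol list (273) and the oxidation list (240.4).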

How the data were processed

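The analysis used 7 samples of HepG2, 1 per assay. The authors deposited RNA-Seq as FPKM in 2 columns per locus, together with columns of a comparison they made between these (a log2 fold change, a test statistic, a p-value and a q-value), which were not used. The submitters' notes name TopHat2 2.1.0, Bowtie, HOMER 4.7 and edgeR for RNA-Seq, BWA for the other assays and the build hg19, with no roles. The annotation is not given in the sources used here, and neither is the number of cultures behind the runs. From rows under an FPKM of 0.05 in both runs, the most frequent ratio gave run 1 a depth of 1.16 times that of run 2, and absolute depth is unknown. Per the study's methods, nucleosome positions came from DANPOS, and marked positions from NUCLIZE, called per sample against input DNA. Coordinates are 1-based, except that locus starts are as deposited.

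Each peak reached 3 bp beyond 1 position and was matched to it by largest overlap, which gave the deposited identifier for 100% of peaks. A position was in a window if its midpoint was. The strand came from the numbering order of loci, and of 8436 genes with coordinates of their own and a RefSeq promoter entry, 99.6% had the same strand there. All members are named. From the other lists the highest and the lowest gene, and expressed genes with 0 trivalent positions, are named, as are neighbours within 10 kb; SREBF2 and PLIN1 were added as relatives of members, and 1 gene that met the rule is not reported here. Members and lists were chosen with earlier results of these data known. Scripts were tested on made-up data with known answers. They ran in Python 3.11.15 with pandas 2.3.3, numpy 2.4.6, matplotlib 3.10.9 and scipy 1.17.1. Alternatives were other expression limits, a pseudocount of 1 in place of 0.01, each run alone, other margins, windows and overlap rules, and, added later, other sets of members and starts.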

Additional observations from a re-analysis of the deposited data

How the results depend on the processing

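With 1 sample per assay, no replicate could be left out. No paired analysis was possible because no groups were compared. All 10 members were expressed at a limit of 0.1 FPKM, where 60.2% of named rows were, and 9 at a limit of 5, where 36.7% were. The difference between the median of the members and that of all named rows, 5.45 on the log2(FPKM + 0.01) scale, was 4.33 with a pseudocount of 1, 2.098 among rows with an FPKM of at least 0.1, and 5.51 with run 1 only. The marked share of 3.05% over the loci was 3.52% with 20 kb at each end and 3.53% without the 3 members that share coordinates or a row. H3K27me3 was at 0 members when at least 3 positions were required. The share of "T" within 2 kb of the start, 21.6% over the 7 members with coordinates of their own, was 31.1% within 1 kb and 9.29% within 5 kb. The median spacing of 173 bp was 180 bp within 2 kb of the start. The count of members with at least 3 "T" was 6 of 7, 4 when at least 4 were required, and 9 of 10 with all members and FASN at its inner group. The last count adds no support, since that group was picked by H3K4me3, which is part of "T". It also includes the group at ACACA, which cannot be assigned to ACACA or TADA2A. The other alternatives of these results stayed within the interval of the value or within 1.5 times a count. For single members 77 alternatives did so and 3 did not: the marked share was 4.80% at FASN with 20 kb at each end, 15.6% at PLIN2 over the locus alone, where SCD had 8.79% and was no longer the highest, and 0 at ACACA without positions inside other named genes, since C17orf78 is listed over the whole locus.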

Other observations

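Some expressed genes of the neighbouring lists had 0 "T" within 2 kb of the listed start. ACSL4, which activates arachidonate and related acids, had 178.3 FPKM, FDFT1, the squalene synthase, had 218.7, and CS, the citrate synthase, had 121.3. CPT1A, the gate of fatty acid oxidation, had 6.20. Further such genes were LPIN1 with 6.06, AGPAT2 with 3.80, NR1H2 with 8.20, CIDEC with 3.14, FITM1 with 2.61 and PLIN5 with 1.39. Among all expressed genes with coordinates of their own, 965 of 6331 had 0 "T". Whether the listed start is the one in use in these cells was not tested.

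A case near the converse was PPARGC1B, a coactivator of SREBP, with 5 "T" and 0.954 FPKM, which was named after its values were seen. Its runs, 1.06 and 0.851, lay on both sides of the limit of 1. Of all 3698 genes with coordinates of their own and at least 3 "T", 3571 were expressed. INSIG1, a known SREBP target, had 0.802 FPKM and 0 "T", while its relative INSIG2 had 52.4 FPKM and 8 "T", and INSIG1 was named for this contrast. MOGAT1 and MOGAT2, which make diacylglycerol and were also named after their values were seen, had 5.97 and 8.32 FPKM with 4 and 3 "T".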
